A study of Mus musculus with 6 samples.

Results

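Matrix metalloproteinases (MMPs) are zinc-dependent enzymes that cut collagens, elastin, laminins and other extracellular matrix proteins, and tissue inhibitors of metalloproteinases (TIMPs) are small secreted proteins that block them. The 10 genes described here, 7 proteases (Mmp2, Mmp3, Mmp12, Mmp13, Mmp14, Mmp15 and Mmp19) and 3 inhibitors (Timp1, Timp2 and Timp3), were taken by name from the 24318 rows of a whole-liver RNA-seq table, and all 10 names were found. The mice were of C57BL/6 background and carried loxP-flanked alleles of Map3k7, which encodes the kinase TAK1, together with a tamoxifen-inducible Cre recombinase under the promoter of Cdh5, the VE-cadherin gene of endothelial cells. The 3 knockout libraries came from tamoxifen-treated mice and the 3 control libraries from untreated mice of the same genotype, so that tamoxifen and deletion cannot be told apart in any comparison. The sources used here give neither age nor sex. Levels are in FPKM, which divides the fragments of a gene by its length and by the size of the library, so those of different genes can be set side by side.

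Most MMPs are made as inactive precursors that another protease must cut. Mmp14 and Mmp15 encode membrane-anchored MMPs, and the Mmp14 protein activates the Mmp2 precursor at the cell surface in a complex with Timp2. Mmp3 (stromelysin-1), Mmp12 (macrophage elastase), Mmp13 (the main interstitial collagenase of rodents) and Mmp19 are secreted, and Timp3 differs from the other TIMPs in that it binds to the matrix and also inhibits ADAM17. In injured liver, stellate cells and macrophages are the best known sources of MMPs and TIMPs, and Timp1 is a standard marker of hepatic fibrosis.

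The 24318 rows include 8986 that were at 0 in every library, and 11842 genes had a mean of at least 0.5 FPKM and were tested. Map3k7 itself measured 8.498, 9.02 and 9.14 FPKM in control livers, against 9.28, 9.31 and 7.35 FPKM in knockout livers (limma adjusted p = 0.868), and cells other than endothelium also express it, so the bulk value does not check the labels. The hepatocyte markers Apoa1 and Ttr, which check the tissue label, were at 3339.7 to 6556 and 2409.7 to 7264 FPKM over the 6 libraries. The files give no counts, but low FPKM values lay on even steps, read here as what 1 fragment is worth, and by these steps the libraries differed little in depth, from 0.921 to 1.08 relative to control 1. Read this way, the steps imply 2053530 to 2426610 fragments per library, which is few for paired-end libraries from this kind of instrument. The denominator behind the deposited FPKM is not known, so that a step may not equal 1 mapped fragment. Fragment numbers below are readings of the steps or, for Mmp8 and Mmp9, estimates from transcript length. A step for a transcript of the length of Mmp13 would be about 0.166 FPKM. Control 3 held the highest summed macrophage and Kupffer cell marker levels of the controls (685 FPKM against 417 and 383, and 847 FPKM against 395 and 462).

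Promoter sequences are shown because the members differ in the letters just upstream of their starts. Transcript levels of AP-1 subunits also differed between the groups, as described further on. Genes for factors that bind the GC box or the TATA box were not examined. The windows are the 250 bases before the RefSeq start (GRCm38.p6), which were given for 8 of the 10 members (not for Mmp2 and Mmp19). Capitals mark matches on either strand to TGANTCA (the AP-1 element), GGGCGG (the GC box) or TATAAA (the TATA box), where N is any base. The first pair is from Mmp3 (chr9:7445572-7445821, plus strand) and Mmp13 (chr9:7272264-7272513, plus strand), both with an AP-1 and a TATA match.
Mmp3: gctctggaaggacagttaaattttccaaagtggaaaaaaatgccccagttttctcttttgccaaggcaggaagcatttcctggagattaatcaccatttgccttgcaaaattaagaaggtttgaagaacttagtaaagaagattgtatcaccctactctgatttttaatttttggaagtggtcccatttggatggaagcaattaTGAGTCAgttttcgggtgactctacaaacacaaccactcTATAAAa
Mmp13: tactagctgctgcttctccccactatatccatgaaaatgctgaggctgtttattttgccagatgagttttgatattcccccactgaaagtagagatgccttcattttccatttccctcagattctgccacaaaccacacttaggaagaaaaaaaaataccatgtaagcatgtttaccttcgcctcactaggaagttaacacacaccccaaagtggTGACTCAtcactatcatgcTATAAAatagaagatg
The other windows are from members that changed, namely Mmp14 (chr14:54431348-54431597, plus strand), Mmp15 (chr8:95352046-95352295, plus strand) and Timp3 (chr10:86300162-86300411, plus strand).
Mmp14: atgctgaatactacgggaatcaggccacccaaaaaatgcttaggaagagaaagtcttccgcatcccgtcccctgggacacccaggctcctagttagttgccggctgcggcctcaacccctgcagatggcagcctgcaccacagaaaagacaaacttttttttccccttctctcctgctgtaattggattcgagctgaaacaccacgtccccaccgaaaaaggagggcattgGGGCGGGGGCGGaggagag
Mmp15: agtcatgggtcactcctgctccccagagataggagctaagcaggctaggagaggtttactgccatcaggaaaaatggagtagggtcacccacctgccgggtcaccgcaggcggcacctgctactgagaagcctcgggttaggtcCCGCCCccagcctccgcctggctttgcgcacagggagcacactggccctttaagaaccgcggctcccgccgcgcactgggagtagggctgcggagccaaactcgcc
Timp3: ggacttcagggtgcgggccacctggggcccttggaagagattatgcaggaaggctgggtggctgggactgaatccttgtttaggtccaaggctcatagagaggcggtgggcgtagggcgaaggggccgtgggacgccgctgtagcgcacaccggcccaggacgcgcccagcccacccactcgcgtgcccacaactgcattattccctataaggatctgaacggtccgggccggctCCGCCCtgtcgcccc

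An AP-1 match lay from -46 to -40 relative to the start of Mmp3 and from -35 to -29 relative to that of Mmp13. One of the 2 RefSeq starts of Mmp12 also had an AP-1 match, from -44 to -38. The windows of Mmp14, Mmp15, Timp1, Timp2 and Timp3 held GC boxes, with 2 in Mmp14, and no AP-1 or TATA match. Of the 32851 promoter windows in the RefSeq table, 6.75% held an AP-1 match, 12.4% a TATA match and 32.7% a GC box. A match describes letters in this window and does not show that a factor binds there.

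Knockout livers had more Mmp14 and Mmp2 RNA and less Mmp15, Mmp19 and Timp3 RNA than control livers. Timp1 and Timp2 did not pass the test, and Mmp3, Mmp12 and Mmp13 were too low to be tested. In all, 5 of the 10 members were called, 2 higher and 3 lower, at a Benjamini-Hochberg adjusted p under 0.05 over all tested genes (limma on log2(FPKM + 0.5), two-sided). The background was wide: 27% of the 11842 tested genes were called, 14.1% higher and 13% lower, so a call as such is not particular to these genes. Rises made up 52.1% of all calls on the scaling as deposited, and 39.5% after setting every library to a common total. For the same 5 members the 3 knockout values did not overlap the 3 control values, which was also so for 43.5% of tested genes (22.4% with all knockouts above and 21.1% with all below). In bulk liver, a lower value can mean fewer cells of the type that makes the transcript or less RNA per cell, and these cannot be told apart.

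**Figure D1:**
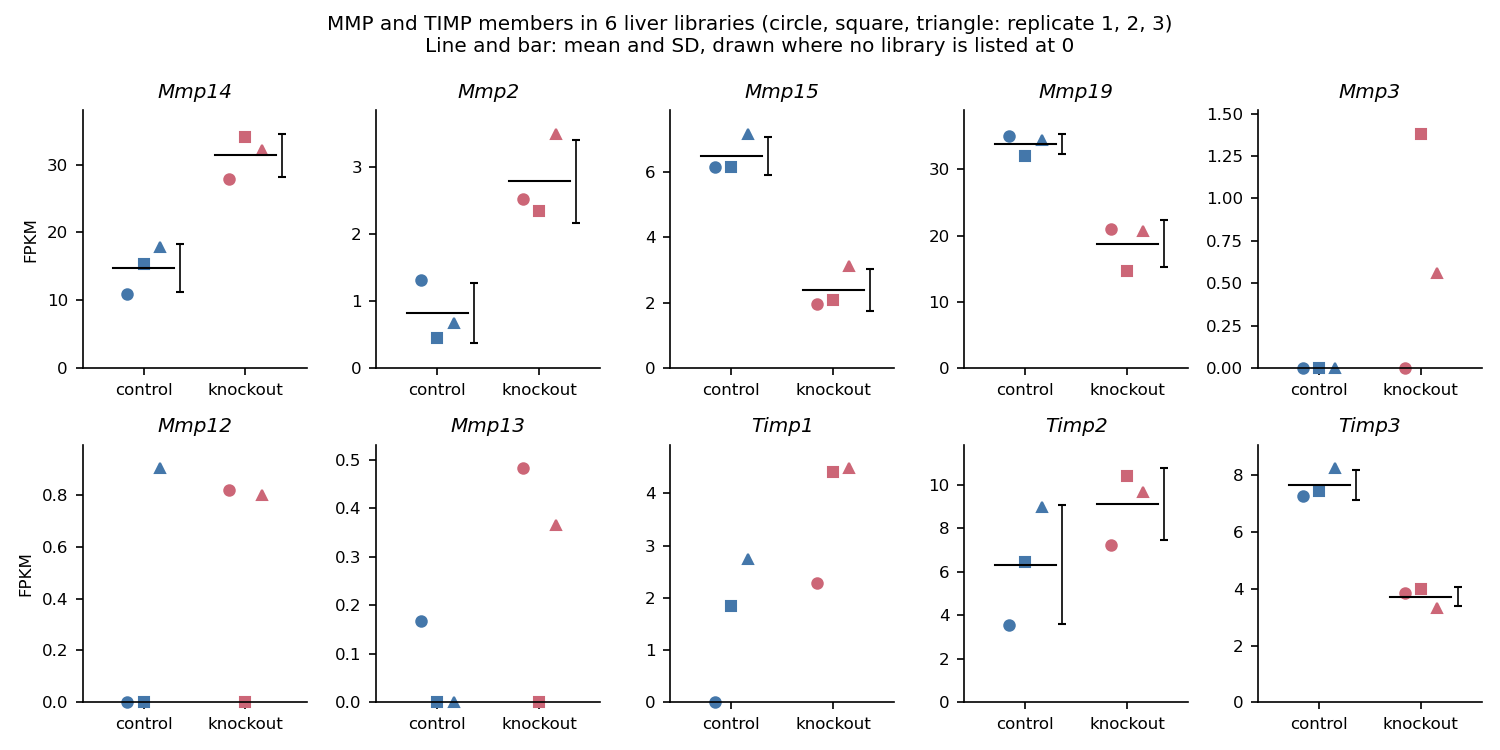
FPKM of the 10 members (vertical axes, linear, each from 0) in 3 control (blue) and 3 knockout (red) livers, with 1 point per library and, where no library is listed at 0, the group mean (line) and SD (bar). The knockout points lie above all control points for Mmp14 and Mmp2 and below all of them for Mmp15, Mmp19 and Timp3, whereas the groups overlap for Timp1, Timp2, Mmp3, Mmp12 and Mmp13.

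Mmp14 (ENSMUSG00000000957, chromosome 14, 54431612 to 54445364 in GRCm38), whose protein cuts fibrillar collagen at the cell surface, measured 10.9, 15.3 and 17.9 FPKM in the control livers and 27.9, 34.1 and 32.2 FPKM in the knockout livers. The lowest knockout value was thus well above the highest control value. Mmp14 rose from 14.7 ± 3.53 to 31.4 ± 3.16 FPKM (SD, n = 3 each), which is 2.13-fold in the means, with a log2 fold change of 1.09 ± 0.19 (SE, limma adjusted p = 0.00333). Mmp2 (ENSMUSG00000031740, chromosome 8, 92827291 to 92853420), which encodes gelatinase A and is the substrate that Mmp14 activates, measured 1.32, 0.456 and 0.676 FPKM in control livers, against 2.53, 2.35 and 3.50 FPKM in knockout livers. Mmp2 was rare in both groups but did not overlap between them. Its values correspond to 9, 3 and 5 steps in controls and 18, 15 and 22 steps in knockouts, each within 0.000458 of a whole number of steps. Mmp2 rose from 0.817 ± 0.448 to 2.79 ± 0.620 FPKM (SD, n = 3), a log2 fold change of 1.36 ± 0.30 (SE, limma adjusted p = 0.0101).

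Mmp15 (ENSMUSG00000031790, chromosome 8, 95352268 to 95375080), the other membrane-anchored member, moved opposite to Mmp14. It measured 6.14, 6.16 and 7.17 FPKM in control livers, against 1.96, 2.08 and 3.11 FPKM in knockout livers, and the highest knockout value was well below the lowest control value. Mmp15 fell from 6.49 ± 0.588 to 2.38 ± 0.634 FPKM (SD, n = 3), a log2 fold change of -1.30 ± 0.22 (SE, limma adjusted p = 0.00251). Within each library Mmp14 exceeded Mmp15 by a ratio of 1.78 to 2.50 in controls and 10.3 to 16.4 in knockouts. A ratio within a library does not depend on how the libraries were scaled.

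Mmp19 (ENSMUSG00000025355, chromosome 10, 128790910 to 128800824), a secreted protease that cuts basement membrane components, was the most abundant member in every control liver. It measured 35.0, 32.1 and 34.4 FPKM in control livers, against 21.0, 14.7 and 20.7 FPKM in knockout livers. The control values lay close together and the 3 knockout values were all lower. Mmp19 fell from 33.8 ± 1.55 to 18.8 ± 3.55 FPKM (SD, n = 3), a log2 fold change of -0.85 ± 0.17 (SE, limma adjusted p = 0.00549). Tmem198b, which overlaps Mmp19 on the opposite strand, measured at most 1.42 FPKM in any library. The antisense gene Gm47093, which also overlaps Mmp19, is not among the deposited genes. The sources used here do not say whether counting used the strand.

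Mmp14 and Mmp19 exchanged places at the top of the order. The ratio of Mmp14 to Mmp19 FPKM was 0.312, 0.477 and 0.521 in the control livers and 1.33, 2.32 and 1.56 in the knockout livers. Mmp19 made up 60.4% ± 4.61 of the summed FPKM of the 7 protease genes in controls and 33.0% ± 5.76 in knockouts, and Mmp14 made up 26.0% ± 4.91 and 55.4% ± 6.18 (SD, n = 3). The sum itself was 53.6, 54.0 and 61.0 FPKM in control livers, against 54.7, 54.6 and 61.2 FPKM in knockout livers. The summed level of these 7 genes thus overlapped between the groups, while the shares of Mmp19 and Mmp14 in it did not. The summed FPKM of the 3 TIMPs also overlapped, at 10.8, 15.7 and 20.0 in control and 13.3, 18.8 and 17.5 in knockout livers. The ratio of summed proteases to summed TIMPs was 3.82 ± 1.01 in controls and 3.50 ± 0.597 in knockouts (SD, n = 3), a difference smaller than the spread between livers. These sums are descriptions of RNA and carry no test. They leave out Mmp8 and Mmp9, which are not members and together summed to 0.567 ± 0.0854 FPKM in controls and 27.6 ± 3.76 FPKM in knockouts (SD, n = 3). The sums and the ratio therefore do not describe all MMP RNA.

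**Figure D2:**
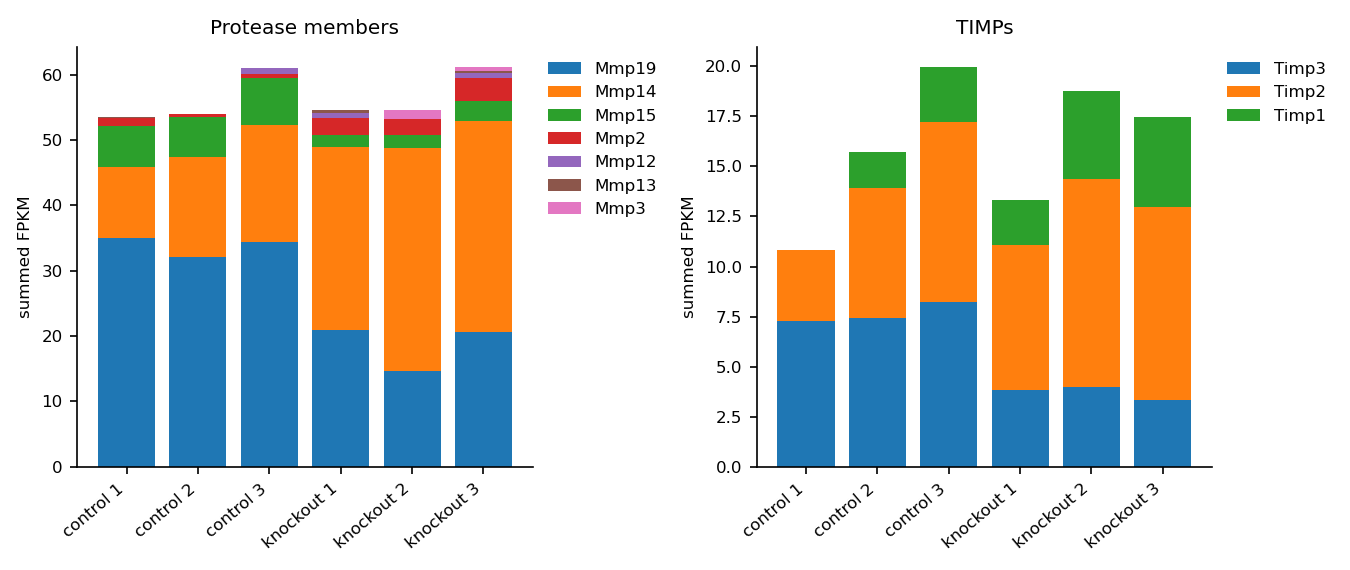
Summed FPKM (vertical axes, from 0) of the 7 protease members (left) and the 3 TIMPs (right) in each of the 6 libraries, with 1 colour per gene. Protease bars are of similar height in all libraries (53.6 to 61.2 FPKM), with Mmp19 the largest part in controls and Mmp14 the largest in knockouts. Mmp8 and Mmp9, which are not members, are not included.

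Mmp3, Mmp12 and Mmp13 lie on chromosome 9 in a cluster that holds 10 family genes within 427 kb (7272514 to 7699585 in GRCm38), and all were at the edge of detection. Mmp3 (ENSMUSG00000043613) was listed at 0 in all control livers and in knockout 1, and measured 1.38 and 0.561 FPKM in knockouts 2 and 3, which correspond to 5 and 2 steps. Mmp13 (ENSMUSG00000050578) measured 0.168, 0 and 0 FPKM in control livers, against 0.483, 0 and 0.365 FPKM in knockout livers, that is 1 step in control 1, 3 in knockout 1 and 2 in knockout 3. Mmp12 (ENSMUSG00000049723) was listed at 0 in controls 1 and 2 and in knockout 2, and measured 0.903 FPKM in control 3, 0.820 in knockout 1 and 0.797 in knockout 3, which correspond to 8, 7 and 6 steps. All 3 genes had values of 0 in both groups and overlapped between them. With no filter on low values their adjusted p was 0.150 for Mmp3, 0.612 for Mmp12 and 0.327 for Mmp13 (limma), so no difference was detectable at this depth.

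Among the inhibitors, Timp3 (ENSMUSG00000020044, chromosome 10, 86300372 to 86349506) was lower in every knockout liver. It measured 7.27, 7.45 and 8.25 FPKM in control livers, against 3.84, 3.98 and 3.34 FPKM in knockout livers, with little spread within either group. Timp3 fell from 7.66 ± 0.519 to 3.72 ± 0.337 FPKM (SD, n = 3), a log2 fold change of -0.95 ± 0.17 (SE, limma adjusted p = 0.00385). Timp3 lies within Syn3, a gene on the opposite strand that measured at most 0.355 FPKM.

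Timp1 (ENSMUSG00000001131, chromosome X, 20870166 to 20874735), the inhibitor that injured liver typically induces, measured 0, 1.84 and 2.73 FPKM in control livers, against 2.27, 4.40 and 4.48 FPKM in knockout livers. Knockout 1 lay below control 3, so the groups overlapped. These values correspond to 0, 3 and 5 steps in controls and 4, 7 and 7 in knockouts, within 0.0247 of whole steps. The log2 fold change of 1.39 ± 0.61 (SE) had a 95% interval of 0.01 to 2.77 and did not pass (limma adjusted p = 0.124); it was 0.57 without control 1 and 1.91 without control 3, with adjusted p of 0.279 and 0.0542. The control mean of Timp1 was 2.29 FPKM without control 1. Timp1 lies within Syn1 on the opposite strand, which measured at most 0.560 FPKM. Timp2 (ENSMUSG00000017466, chromosome 11, 118301069 to 118355740), the partner of Mmp14 in activating Mmp2, measured 3.53, 6.45 and 8.99 FPKM in control livers, against 7.23, 10.4 and 9.66 FPKM in knockout livers. The wide control range took in knockout 1. Cep295nl, which overlaps Timp2 on the same strand, is not among the deposited genes, so its level is not known. The log2 fold change of Timp2, 0.56 ± 0.30 (SE, 95% interval -0.11 to 1.24), did not pass (limma adjusted p = 0.197). It was 0.23 without control 1 and 0.84 without control 3, with adjusted p of 0.563 and 0.0605. The ratio of Timp2 to Timp3 within a library was 0.486, 0.866 and 1.09 in controls and 1.89, 2.61 and 2.89 in knockouts, with no overlap.

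**Figure D3:**
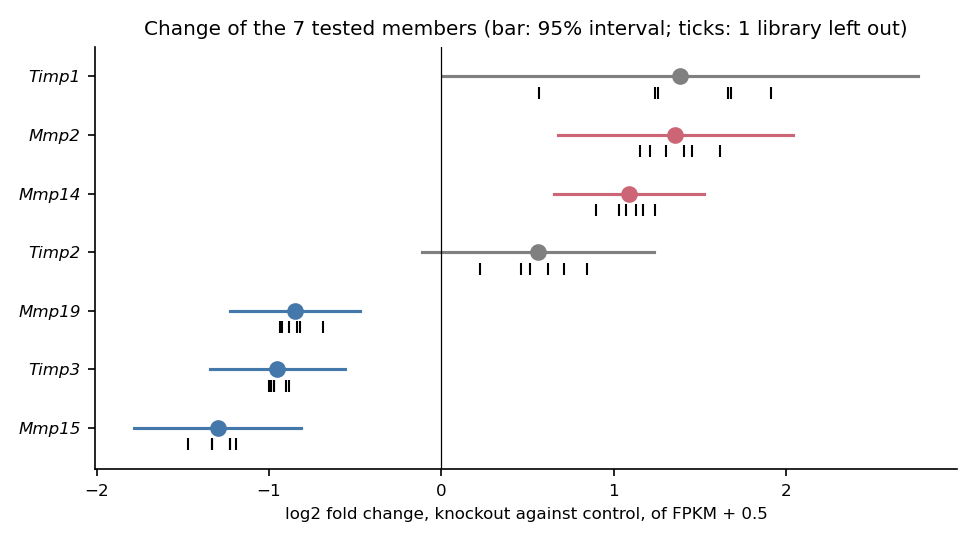
Log2 fold change of knockout against control on the log2(FPKM + 0.5) scale (horizontal axis) for the 7 tested members, with 95% intervals as bars and, as black ticks below each, the value with 1 library left out. Red and blue mark members past an adjusted p of 0.05, and their ticks stay on 1 side of 0 with ranges such as 0.90 to 1.24 for Mmp14 and -0.998 to -0.886 for Timp3, whereas those of Timp1 run from 0.57 to 1.91.

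In control livers the order of levels was Mmp19, then Mmp14, then Timp3, Mmp15 and Timp2, then Timp1 and Mmp2, with Mmp12, Mmp13 and Mmp3 last. The library values of Timp2 took in those of Mmp15 and of Timp3, and those of Timp1 took in those of Mmp2. Timp2 thus did not differ from Mmp15 or Timp3, nor Timp1 from Mmp2, beyond their spread. Timp3 was above Mmp15 in every control library, with no overlap (7.27 to 8.25 against 6.14 to 7.17 FPKM). In knockout livers the order was Mmp14, Mmp19 and Timp2, each apart from the next, then Timp3, Timp1, Mmp2 and Mmp15 at 3.72, 3.72, 2.79 and 2.38 FPKM in the mean, where each overlapped its neighbour. The exact two-sided permutation p was 0.1 for each of the 5 called members, which is the smallest that 3 against 3 libraries can give. It was 0.2 for Timp1 and Timp2.

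Outside the 10 members, the family's largest changes were in the proteases of neutrophil granules. Of the 17 other MMP and TIMP genes in the table, 5 were tested, 4 rose and none fell. The 4 had control means of 0.084 to 0.329 FPKM and passed the filter of 0.5 FPKM only through their knockout values. A gene this low in controls could be tested only if it rose, so the count was largely set by the filter. Of all tested genes 14.1% were higher, a share to which this count cannot be compared. Mmp8, the neutrophil collagenase, measured 0.184, 0.191 and 0.340 FPKM in control livers, against 15.2, 11.4 and 12.4 FPKM in knockout livers (log2 fold change 4.19 ± 0.22, limma adjusted p = 9.79e-06). Mmp8 lies in the same chromosome 9 cluster as Mmp3, Mmp12 and Mmp13. Mmp9, or gelatinase B, measured 0.420, 0.436 and 0.129 FPKM in control livers, against 14.2, 11.8 and 17.6 FPKM in knockout livers (log2 fold change 4.19 ± 0.25, limma adjusted p = 1.97e-05). The step search gave no step for either gene. Estimated from the length of the longest transcript instead, each control liver held at most about 3 fragments of either gene, and the knockout livers about 58 to 116. The membrane-anchored leukocyte protease Mmp25 measured 0.131, 0 and 0.121 FPKM in control livers, against 1.13, 1.12 and 1.14 FPKM in knockout livers (log2 fold change 1.49 ± 0.30, adjusted p = 0.00592). Mmp23 measured 0, 0.346 and 0.308 FPKM and 0.961, 2.50 and 2.17 FPKM (log2 fold change 1.70 ± 0.37, adjusted p = 0.0093). Together Mmp8 and Mmp9 summed to 0.567 ± 0.0854 FPKM in controls and 27.6 ± 3.76 FPKM in knockouts (SD, n = 3), next to 31.4 FPKM for Mmp14. A further 6 genes were at 0 in every library (Mmp1a, Mmp1b, Mmp10, Mmp16, Mmp20 and Timp4).

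**Figure D4:**
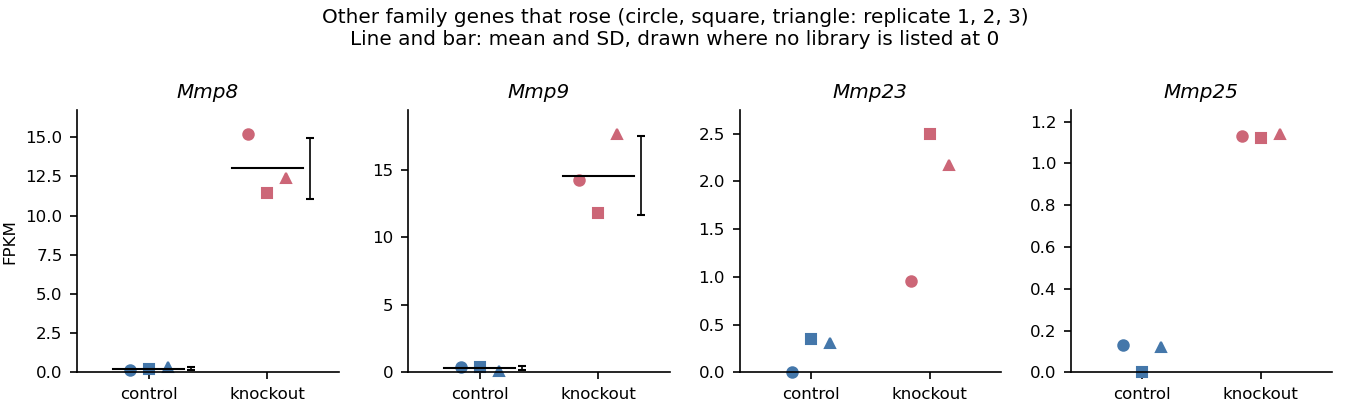
FPKM (vertical axes, linear, each from 0) of the 4 other family genes that rose, with 1 point per library in blue (control) and red (knockout), and mean and SD where no library is listed at 0. Mmp8 and Mmp9 go from under 0.5 FPKM in each control liver to between 11.4 and 17.6 FPKM in each knockout liver.

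The precursors of MMPs are opened by serine proteases and by furin-like convertases, and these genes moved in both directions. Of 13 such genes 5 rose, 2 fell, 4 did not pass and 2 were not tested. The median log2 fold change was 0.14 over those tested, against -0.0007 over all tested genes. The shares called over all tested genes were 14.1% higher and 13% lower. Plat, with a control mean of 0.403 FPKM, passed the filter of 0.5 FPKM only through its knockout values, so the comparison is not fully like for like. Furin, which opens the Mmp14 precursor, measured 60.6 ± 3.49 FPKM in control livers, against 59.9 ± 5.71 in knockout livers (SD, n = 3). The risers with the largest change were the neutrophil granule proteases Ctsg (1.02, 0 and 1.41 FPKM in control livers, against 12.7 to 16.3 in knockout livers, log2 fold change 3.66, adjusted p = 5.36e-04) and Elane (0 to 2.09 and 5.51 to 14.5, log2 fold change 3.08, adjusted p = 0.00352), then Prtn3 (49.5 to 75.2 and 154 to 192, log2 fold change 1.53, adjusted p = 4.83e-04) and the plasminogen activator gene Plat (0.353 to 0.489 and 1.15 to 3.02, log2 fold change 1.41, adjusted p = 0.0121). The 5th riser was Plau (log2 fold change 1.11, adjusted p = 0.033), whose call was lost without control 1, control 2, knockout 2 or knockout 3 (adjusted p of 0.0812 to 0.110) as well as with no filter on low values and with quantile normalization (0.0603 and 0.0697). Klkb1, the plasma kallikrein gene made by hepatocytes, fell from 103 ± 6.53 to 56.4 ± 10.9 FPKM (adjusted p = 0.00364), and Pcsk6 had a log2 fold change of -0.41 (adjusted p = 0.0317) whose call did not hold in 5 of the 6 fits that left a library out, all but that without knockout 2, and which was -0.06 after quantile normalization. Plau, Klkb1, Pcsk6 and Furin were named after their values were seen.

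Broad protease inhibitors outside the TIMPs rose in part. Of 11 genes for other MMP inhibitors and clearance factors 4 rose, none fell (1 fell on a common total, and 1 without control 3), 4 did not pass and 3 were not tested (median log2 fold change 0.96). The background was 14.1% of tested genes higher and 13% lower. Of the 4 that rose, A2m and Thbs2 had control means of 0 and 0.361 FPKM. They passed the filter of 0.5 FPKM only through their knockout values, so the count is not fully comparable to the background. Pzp, a plasma protein of the alpha-2-macroglobulin family that traps proteases, rose from 1375 ± 146 to 3012 ± 223 FPKM (SD, n = 3, log2 fold change 1.13 ± 0.16, limma adjusted p = 0.00135). Its relative A2m was listed at 0 in all control livers and measured 3.22, 5.39 and 3.55 FPKM in knockout livers (adjusted p = 1.49e-04). The thrombospondins Thbs1 and Thbs2, which take part in the uptake of Mmp2 by cells, had log2 fold changes of 2.47 (adjusted p = 0.0011) and 2.68 (adjusted p = 2.50e-04). Reck, a membrane-anchored MMP inhibitor named after its values were seen, measured 1.18 ± 0.323 and 0.849 ± 0.0993 FPKM and did not pass.

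Genes of the matrix on which these proteases act were mostly higher. Of 19 matrix substrate genes 16 rose, none fell and 3 did not pass (Eln, Hspg2 and Spp1), with a median log2 fold change of 1.83. Among all tested genes 14.1% were higher and 13% lower. Vcan, with a control mean of 0.104 FPKM, passed the filter of 0.5 FPKM only through its knockout values. This list, like the others, was chosen with earlier results of these data known. The fibrillar collagen gene Col1a1 measured 1.67, 3.18 and 12.8 FPKM in control livers, against 28.9, 36.8 and 60.5 FPKM in knockout livers (log2 fold change 3.10 ± 0.57, adjusted p = 0.00392). Col3a1 measured 8.97, 8.898 and 21.2 FPKM and 58.0, 64.5 and 95.3 FPKM (log2 fold change 2.52 ± 0.32), and control 3 was the highest control for both. Col1a2 and the proteoglycan Vcan had log2 fold changes of 2.24 and 2.31. Of 8 surface partners of MMPs 6 rose and none fell (1 fell with every library set to a common total), among them the hyaluronan receptor Cd44, which docks Mmp9 and Mmp14 at the cell surface (7.12 ± 2.71 to 19.3 ± 1.79 FPKM), the tetraspanin Cd9 (16.1 ± 3.65 to 41.6 ± 10.9 FPKM), the MMP inducer Bsg (409 ± 47.3 to 969 ± 135 FPKM) and Lcn2, which binds Mmp9 (log2 fold change 4.12).

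Of 16 MMP-inducing cytokines and AP-1 or ETS factors, 8 rose, none fell, 2 did not pass and 6 were not tested (median log2 fold change 1.53). For all tested genes the shares were 14.1% higher and 13% lower. Fos, with a control mean of 0.354 FPKM, passed the filter of 0.5 FPKM only through its knockout values. The count is therefore not fully comparable to these shares. The AP-1 subunit Junb measured 6.29 to 10.1 FPKM in control livers, against 42.7 to 65.8 FPKM in knockout livers (log2 fold change 2.63 ± 0.22, adjusted p = 1.16e-04), Jun 3.49 to 5.01 and 14.4 to 25.2 FPKM (2.06 ± 0.23, adjusted p = 3.71e-04) and Fos 0 to 0.606 and 1.90 to 6.32 FPKM (2.18 ± 0.45, adjusted p = 0.00669). The cytokine Il1b, an inducer of Mmp3 and Mmp13 in fibroblasts, measured 0.337 to 2.55 and 6.62 to 9.89 FPKM (log2 fold change 2.37 ± 0.42). In the same knockout libraries Mmp3 and Mmp13, whose windows above carry an AP-1 match, held 0 to 5 and 0 to 3 steps. Mmp12, with such a match at 1 of its 2 starts, held 0 to 7 steps. Any link between AP-1 levels, these matches and the levels of these genes was not tested.

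**Figure D5:**
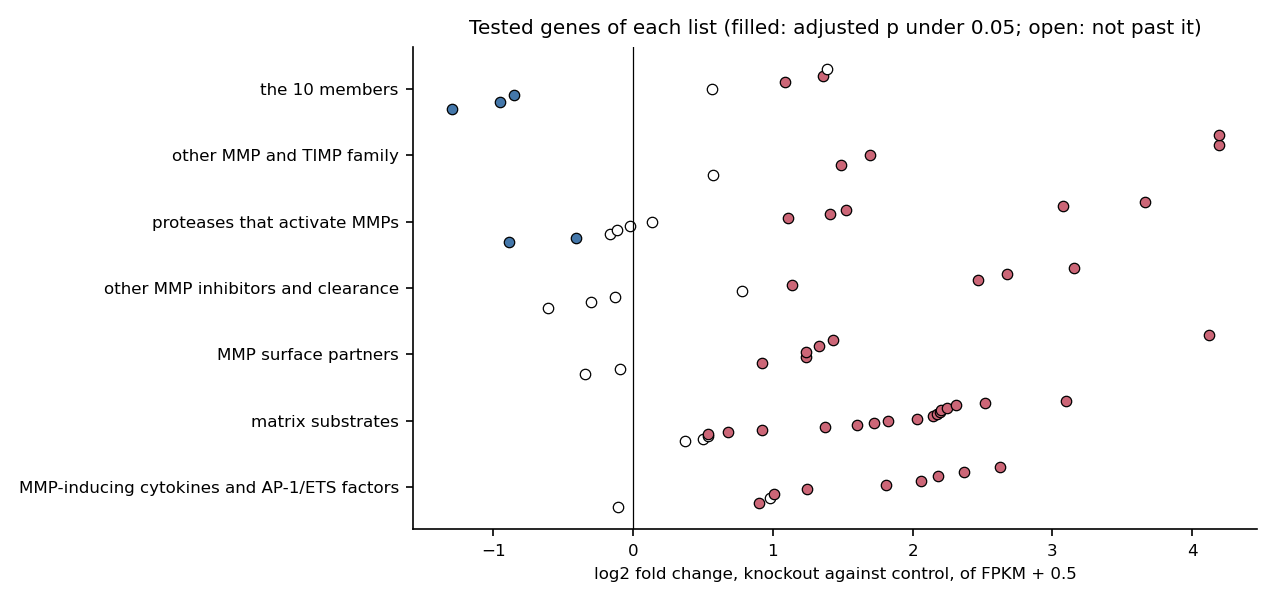
Log2 fold change of knockout against control on the log2(FPKM + 0.5) scale (horizontal axis), 1 point per tested gene, for the 7 tested members and 6 lists of related genes (rows). Points of the matrix substrate list lie to the right of 0, with 16 of 19 past the threshold, while the members lie on both sides, 2 higher and 3 lower.

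Markers of several cell types moved with these genes, and their part in the changes was not tested. Background shares were 14.1% of tested genes higher and 13% lower. Some markers passed the filter of 0.5 FPKM only through the group in which they were high, so the counts are not fully comparable to these shares. Camp, Ltf, Cxcr2, F13a1, Chil3, Gpnmb, Lox and Sox9 averaged 0.143 to 0.422 FPKM in controls. Clec4g and Ptprb averaged 0.127 and 0.371 FPKM in knockouts. Col1a1, Col1a2 and Col3a1 count both as matrix and as fibroblast genes, and Spp1 both as a matrix and as a bile duct gene. Neutrophil markers (8 of 8 rose) summed to 35.97 to 72.5 FPKM in control livers, against 1692 to 1777 FPKM in knockout livers, beside the rises of Mmp8, Mmp9 and Mmp25. Monocyte markers (7 of 7 rose) summed to 272 to 375 and 612 to 645 FPKM. Fn1, which is also in the matrix list, made up most of these sums, at 270 to 365 and 469 to 517 FPKM. The monocyte list had a median log2 fold change of 3.30, against 0.68 for Fn1. Macrophage markers (10 of 12 rose) summed to 383 to 685 and 1129 to 1278 FPKM. Myofibroblast and fibroblast markers (7 of 8 rose) summed to 26.5 to 60.9 and 159 to 308 FPKM, beside Mmp14 and Mmp2, while of 10 stellate cell markers 3 rose and none fell (132 to 149.6 and 148 to 169.9 FPKM). Sinusoidal endothelial markers (7 of 8 fell) summed to 125 to 199 and 21.0 to 26.8 FPKM, beside Timp3, and Clec4g was listed at 0 in knockouts 2 and 3. Of 8 general endothelial markers 5 fell (51.9 to 94.6 and 37.8 to 44.8 FPKM), and of 6 hepatocyte markers 4 fell (15609.7 to 21340.2 and 9903 to 11409 FPKM), beside Mmp15 and Mmp19. Kupffer cell markers (2 of 6 rose) summed to 395 to 847 and 850.0 to 1030.1 FPKM, and of 6 bile duct markers 1 rose and 1 fell (29.1 to 44.4 and 40.8 to 52.0 FPKM). None of these lists' markers was at 0 in all 6 libraries.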

How the data were processed

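RNA of 6 livers was made into TruSeq libraries and sequenced from both ends of each fragment, per the labels' protocols. Cuffnorm 2.2.1, Cuffdiff 2.2.1, TopHat2 2.1.0 and Trimmomatic 0.33 are named in the submitters' processing notes, as is the mouse build mm9. The sources used here do not name the gene annotation. The table as deposited holds the authors' FPKM values, 1 column per library, which were used as they stand. Alb, listed at 0 in every control, was left out as a failed estimate. Other zeros can also be failed estimates.

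The 2 groups were compared on log2(FPKM + 0.5) with limma 3.58.1 under R 4.3.3, using lmFit and then eBayes with its trend option, for genes averaging 0.5 FPKM or more over the libraries. Fold changes of low genes are understated on this scale. P-values were adjusted by Benjamini-Hochberg over all tested genes. The labels do not say that the 3 libraries of a group came from separate animals, and p-values measure only the spread between these samples. The fit was tested on simulated data. Single members were also tested by exact permutation over the 6 libraries. Named genes were the 10 members and, per list, up to 4 called genes with the largest change; exceptions are marked. The members and the lists were chosen with earlier results of these data known.

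Relative depth was read from ratios of values under 1 FPKM, and whole fragments from the largest step that brought a gene's depth-corrected values within 0.03 of whole numbers, up to 25 steps, and lay within 1.5 times of the value expected for 1 fragment of its longest GENCODE M21 transcript. No count table was used, so no counting interval is given. Gene positions are those of GENCODE (GRCm38), a later build than that of the authors. Promoters are from RefSeq. The limits of the step search were set after seeing the data. Alternatives were other pseudocounts, filters, scalings and variance models, weights per library, leaving out each library, and the replicate number as a block. Figures were drawn with matplotlib 3.10.9. The genes most like Timp3 over the libraries are not reported here.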

Additional observations from a re-analysis of the deposited data

How the results depend on the processing

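The log2 fold changes of Mmp2, Mmp14, Mmp15, Mmp19 and Timp3 kept their direction and their call under all 17 alternatives, with adjusted p (limma) of 0.00879 to 0.0398 for Mmp2, 0.00221 to 0.0140 for Mmp14, 0.00132 to 0.0124 for Mmp15, 0.00196 to 0.0255 for Mmp19 and 0.00273 to 0.0178 for Timp3. After setting every library to a common total, the median change over the tested genes was -0.10 (log2). With 1 library left out the number of members called stayed at 2 higher and 3 lower. Deviations of same-numbered libraries were no more alike than those of other pairs (correlations of -0.0100 to 0.00151, against -0.0356 to 0.0375). Taken over all tested genes, these values cannot exclude a pairing that acts on some genes. With a replicate block, Timp1 passed (log2 fold change 1.39, adjusted p = 0.0280; its alternatives gave 0.0280 to 0.279), and 1 activating protease gene was called lower instead of 2; the cause was not tested. That number was also 1 with quantile normalization and without a mean-variance trend, and 1 to 2 with a library left out, Pcsk6 being the gene that lost its call. Other inhibitor genes called lower numbered 1 instead of 0 with a common total and with array weights, and 0 to 1 with a library left out, and surface partner genes called lower numbered 1 with a common total. All tested genes called lower numbered 935 to 1484 with a library left out, with 990 without control 1 and 935 without control 2. Depth limits the rare members most: in no library did Mmp3, Mmp12, Mmp13 or Timp1 exceed 8 steps of the FPKM scale, and Mmp2 lay at 3 to 9 steps in controls.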

Other observations

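The tested genes whose log2(FPKM + 0.5) values over the 6 libraries were most like those of Timp1 were Galns and Shkbp1 (Pearson r of 0.987 for both). For Mmp13 they were Ccl7 and Cenpt (0.996 and 0.993), and for Mmp12 1700084E18Rik and Asxl2 (0.996 and 0.989). These values are descriptions over 6 libraries that fall into 2 groups, and those of Mmp12 and Mmp13 rest on 3 libraries above 0 each. They are the top pairs among 11842 genes searched, and no test was made.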
